A study of Mus musculus with 2 samples.

Results

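The Dppa (developmental pluripotency-associated) genes Dppa2, Dppa3, Dppa4 and Dppa5a were examined in mouse E14 embryonic stem cells after knockdown of Mll2. All probe sets of the array whose annotation gives only one of these symbols were taken, which were 5 probe sets for 4 of the 18193 named genes. The 4 genes were selected on sight of the same 2 arrays, with the low Dppa3 value already known, so their values are a description and carry no test. E14 is a long-used line of mouse embryonic stem cells, and the Mll proteins are histone H3 methyltransferases. The Mll2 group was E14 cells infected with lentivirus that expressed a short hairpin RNA (shRNA) directed at Mll2, and the control group was the same line infected with lentivirus that expressed a control shRNA. Infection lasted 24 h and puromycin selection 5 days. Each group had 1 Affymetrix 3' expression array, so no difference has a replicate check and no p-value is given. The number of arrays limits the precision.

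Dppa2 and Dppa4 are SAP-domain proteins that bind DNA and each other on chromatin. They help keep the promoters of developmental genes in a poised state with active and repressive histone marks, and they act upstream of Dux and Zscan4, genes of the embryo at genome activation. Dppa3, also called Stella or PGC7, is a maternal and germ-cell protein that protects DNA methylation in the zygote and restrains UHRF1, the factor that brings DNMT1 to replicated DNA. In cultures of embryonic stem cells, Dppa3 is known to be on in some cells and off in others. Dppa5a, also called Esg1, encodes a KH-domain RNA-binding protein of pluripotent cells.

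The targeted transcript was looked at first. The name Mll2 has been given to Kmt2d and to Kmt2b, and which of them was meant is not in the labels. Kmt2d had a signal of 335 on the Mll2 shRNA array and 736 on the control array, a log2 ratio of -1.14, whereas Kmt2b had 852 and 901, a log2 ratio of -0.08. A further Kmt2d probe set lay on both arrays below 6.02 on the log2 scale, a signal of 64.7, which is the 50th percentile of all values and was used as a floor. Ratios throughout are Mll2 shRNA over control shRNA, and a gene counts as measured if any of its probe sets lay above this floor on at least 1 array. Each gene is represented by its brightest probe set, which in 33 of the 11805 measured genes lay below the floor on both arrays and gave a ratio of 0.

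All 4 Dppa genes were measured, each above the floor on both arrays, and all 4 were lower in the Mll2 shRNA array. Only Dppa3 was lower by 2-fold or more, and none was higher by that much. The other 3 had log2 ratios from -0.23 to -0.18. Of 11805 measured genes, 116 (0.983%) were at least 2-fold lower and 173 (1.47%) at least 2-fold higher. Because Dppa3 was known to be low when the set was put together, nothing can be read from its count of 1 in 4 against that background. Of the genes past 2-fold in the whole table, 59.9% were higher, against 75.9% when the arrays were scaled on the bacterial spike-in controls, 52.2% with loess and 51.1% with quantile normalization. The median log2 ratio was -0.22 over the 4 Dppa genes and 0.03 over all measured genes.

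**Figure D1:**
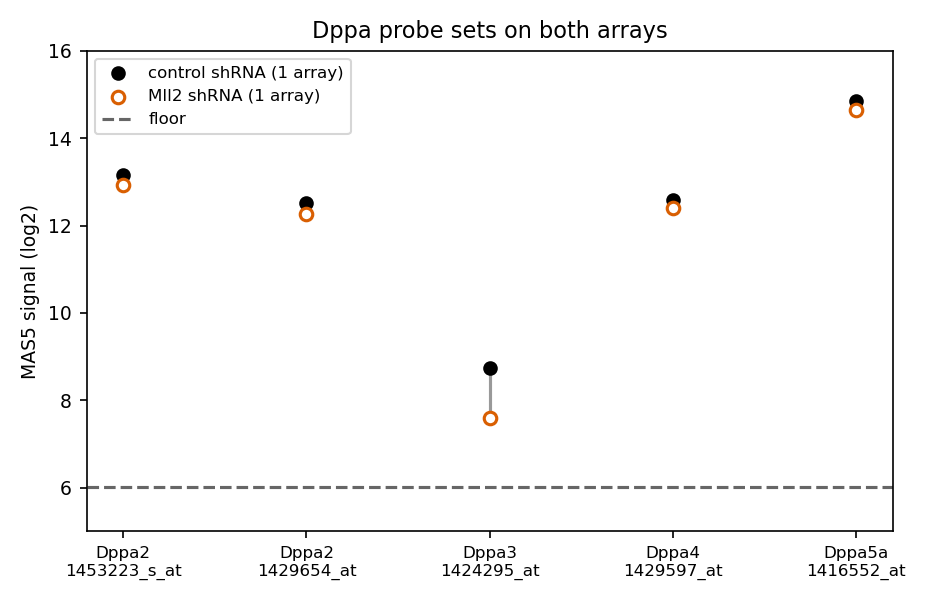
The log2 MAS5 signal (y axis) of each of the 5 Dppa probe sets (x axis) is plotted for the control shRNA array (filled) and the Mll2 shRNA array (open), 1 array each, with the floor as a dashed line. The open point lies below the filled one for every probe set, and the gap is widest for Dppa3, from 8.75 to 7.61.

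Dppa3 was the dimmest of the set within its arrays and the one that differed most. Its only probe set, 1424295_at, had a signal of 431 in the control array and 195 in the Mll2 shRNA array, or 8.75 and 7.61 on the log2 scale. The Mll2 shRNA value was thus 45.2% of the control value. The log2 ratio was -1.14, a 2.21-fold lower signal. In bulk RNA, fewer Dppa3-positive cells and less Dppa3 mRNA per cell cannot be told apart.

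The Dppa3 difference was then set against genes of similar brightness. Among the 500 measured genes nearest to Dppa3 in mean level, the median log2 ratio was 0.10 and the spread (the scaled median absolute deviation of their ratios) was 0.39. From the 5th to the 95th percentile their ratios ran from -0.73 to 0.81. Dppa3 lay outside this range, and 8 of the 500 (1.60%) had a lower ratio. Because Dppa3 was chosen with its low value known, this rank is a description and no measure of chance. Of these 500, 11 were at least 2-fold lower and 9 at least 2-fold higher. This spread mixes noise with true differences and does not cover variation between cultures. The 2-fold call was lost with the floor at the 70th percentile (log2 ratio -0.79) and with a pseudocount equal to the floor (-0.93). Both settings pull in the ratios of dim probe sets. At the 70th percentile the Mll2 shRNA value was raised to the floor. The -0.79 is therefore a bound, a difference of at least that size.

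Dppa2, which pairs with Dppa4 on chromatin, is the only member with more than 1 probe set. Probe set 1453223_s_at had a signal of 9141 in the control array and 7802 in the Mll2 shRNA array. Probe set 1429654_at had 5823 and 4914. The log2 ratios were -0.23 and -0.24, with a mean of -0.24 ± 0.012 (SD over 2 probe sets on the same 2 arrays, which is no replicate error). The probe sets thus gave nearly the same ratio, at 85.4% and 84.4% of the control signal. The suffix _s_at marks a probe set that can detect more than one transcript.

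Dppa4, its partner, had a signal of 6124 in the control array and 5394 in the Mll2 shRNA array (probe set 1429597_at). The log2 ratio was -0.18, or 88.1% of the control signal. The partners therefore differed between the arrays by similar amounts and in the same direction. Dppa5a had 29661 in the control array and 25464 in the Mll2 shRNA array (1416552_at), a log2 ratio of -0.22 and 85.9% of the control signal.

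These 3 small differences were within the spread of other bright genes once the shift at that brightness was taken off. The 500 genes nearest in level to Dppa2 had a median log2 ratio of -0.06 and a spread of 0.19, and 81 of them (16.2%) were lower than Dppa2. For Dppa4 the median was -0.04, the spread 0.20, and 122 of 500 (24.4%) were lower. For Dppa5a the median was -0.09, the spread 0.15, and 95 of 500 (19.0%) were lower. Relative to these medians, Dppa2 was at -0.17, Dppa4 at -0.14 and Dppa5a at -0.13, each smaller in size than its spread, whereas Dppa3 was at -1.24.

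Dppa5a was near the top of the signal range. Only 50 of 45037 probe sets were brighter than it on the control array and 74 on the Mll2 shRNA array, and the highest log2 values were 15.21 and 15.13. From 1.94% to 3.83% of probe sets were brighter than those of Dppa2 and Dppa4, while 23.1% of probe sets on the control array and 33.5% on the Mll2 shRNA array were brighter than Dppa3. Whether the brightest probe sets under-report a change was not tested. The RefSeq annotation also lists the pseudogenes Dppa5b, Dppa5c and Dppa3-ps, and whether these probe sets detect them was not tested.

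**Figure D2:**
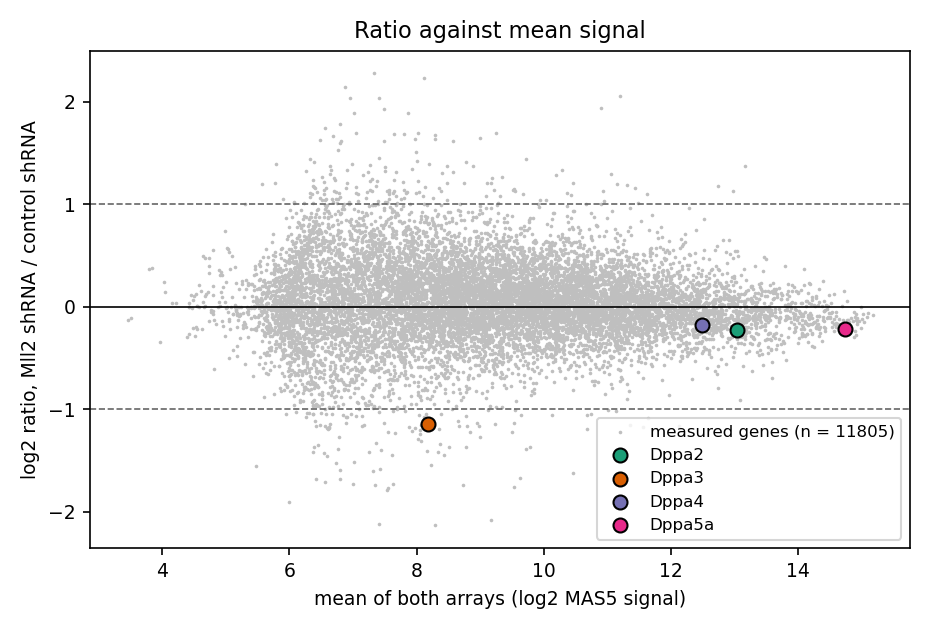
The log2 ratio of Mll2 shRNA over control shRNA (y axis) is plotted against the mean log2 signal of both arrays (x axis) for 11805 measured genes (grey) and the 4 Dppa genes (coloured), with dashed lines at 2-fold. Dppa3 lies below the lower dashed line at -1.14, and Dppa2, Dppa4 and Dppa5a lie at the bright end between -0.23 and -0.18.

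Direction was the same under other scalings of the arrays. With median centring, quantile normalization, loess and spike-in scaling, all 4 Dppa genes kept a ratio below 0. Dppa3 ran from -1.21 with quantile normalization to -1.03 with spike-in scaling, at 2-fold or more throughout. Spike-in scaling brought Dppa2 to -0.11, Dppa4 to -0.066 and Dppa5a to -0.10, with the median of all measured genes raised to 0.14. Quantile normalization brought Dppa5a to -0.068. The smaller differences thus shrank under these scalings, from -0.23 for Dppa2, -0.18 for Dppa4 and -0.22 for Dppa5a as deposited. Spike-in scaling moves the ratio of every gene above the floor on both arrays by the same amount. A large ratio such as that of Dppa3 therefore loses less of its size, which does not make it firmer.

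**Figure D3:**
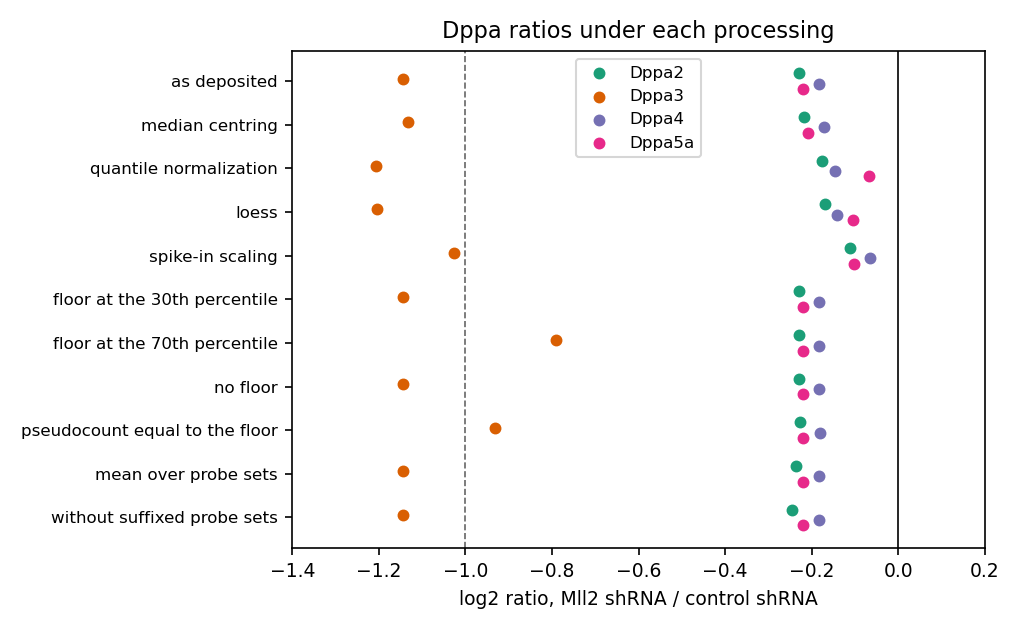
The log2 ratio (x axis) of each Dppa gene (colour) is shown for the values as deposited and for 10 alternatives (rows), with a dashed line at 2-fold lower. Dppa3 stays between -1.21 and -0.79 and the other 3 between -0.24 and -0.066.

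Genes beside the Dppa genes on the chromosome were described next, taking the 3 nearest array-named genes on each side in the RefSeq gene order. Dppa3 lies among genes known for expression in pluripotent cells. Its neighbour Nanog, a homeodomain factor of pluripotency, had a signal of 4950 in the control array and 6864 in the Mll2 shRNA array, a log2 ratio of 0.47. Gdf3, a growth factor of the TGF-beta family on the other side, had 2207 and 2414, a ratio of 0.13, with 0.36 in its second probe set. Apobec1, a cytidine deaminase that edits Apob mRNA, had 125 and 273, a ratio of 1.13.

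Dppa3 was thus the only one of the 7 genes at this locus that was at least 2-fold lower, and Apobec1 the only one at least 2-fold higher. With the floor at the 70th percentile, the Apobec1 control value was raised to it, which left a bound of 0.13. The Apobec1 ratio was 0.83 with the pseudocount. Of the others, the glucose transporter gene Slc2a3 was at -0.03, with 0.08 after quantile normalization or loess and 0.09 under spike-in scaling, and the forkhead factor gene Foxj2 at 0.12. Mfap5, a microfibril protein gene, was above the floor on the control array only and was lower by at least 1.27-fold.

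Dppa4 and Dppa2 are adjacent among the array-named genes, so that they share most of their neighbours. Morc1, an ATPase gene needed for transposon silencing in male germ cells, was the measured neighbour on the Dppa2 side, with a signal of 2737 in the control array and 3923 in the Mll2 shRNA array. Its log2 ratio was 0.52, against a spread of 0.23 at its level. On the Dppa4 side, the adhesion gene Nectin3 was at 0.21, with further probe sets at 0.14 and -0.15, and a bound of -0.14 in the last. Gm5485, 6430553K19Rik, Trat1 and Cd96 were below the floor on both arrays and gave no ratio.

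Beside Dppa5a, the measured genes lay on one side. Ooep, a KH-domain gene of the oocyte and early embryo, had 2802 in the control array and 4789 in the Mll2 shRNA array, a log2 ratio of 0.77 against a spread of 0.23. Ddx43, an RNA helicase gene, had 390 and 608, a ratio of 0.64 against a spread of 0.33. Cgas, a sensor of cytosolic DNA, was at -0.02 (0.10 under spike-in scaling), with 0.63 in its second probe set. Gsta2, Omt2a and Omt2b, on the other side, were below the floor. At both of these loci the measured neighbours with a difference beyond the spread were higher in the Mll2 shRNA array. The Dppa genes were slightly lower, but within the spread once the shift at their brightness was taken off.

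**Figure D4:**
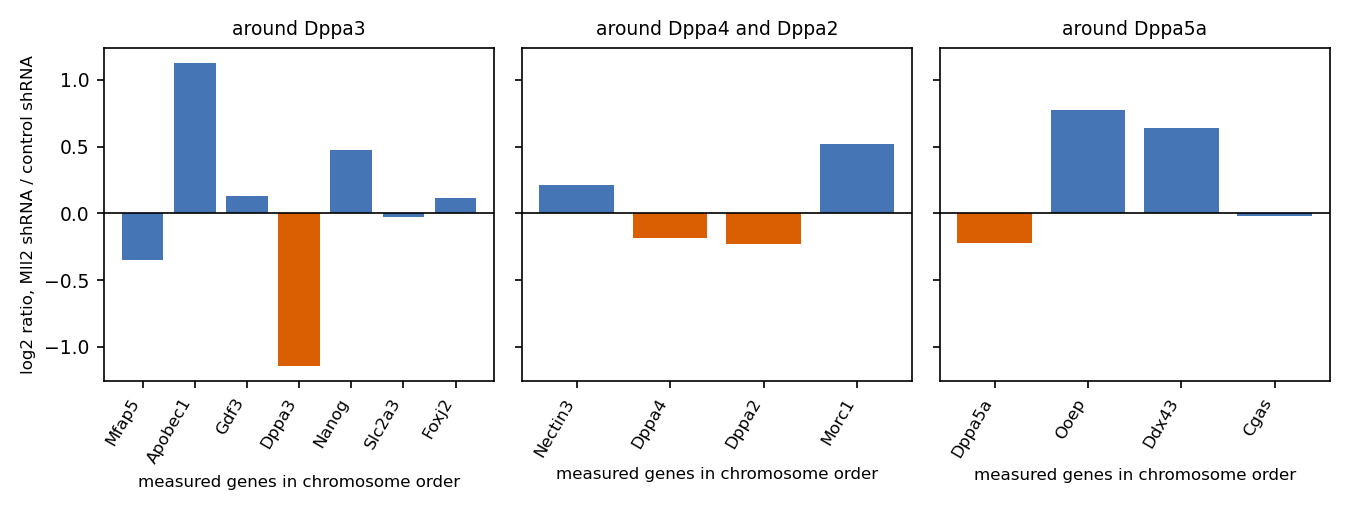
Bars give the log2 ratio of Mll2 shRNA over control shRNA (y axis) for the measured genes around Dppa3, around Dppa4 with Dppa2, and around Dppa5a, in chromosome order and not to scale in distance (x axis), with the Dppa genes in orange. The Dppa bars point down, and those of Apobec1 (1.13), Ooep (0.77), Ddx43 (0.64), Morc1 (0.52) and Nanog (0.47) point up.

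Genes that share a protein family or pathway with the Dppa genes were described as lists, each by its counts and median. Over all measured genes, 5475 had a ratio below 0 and 6297 above 0. Of 5 KH-domain relatives of Dppa5a, 2 were measured, and both were higher. Besides Ooep, this was Khdc3, which acts with Ooep in the maternal complex under the oocyte cortex, with 230 in the control array and 407 in the Mll2 shRNA array. Its log2 ratio was 0.83 against a spread of 0.39. Khdc1a and Khdc1b lay below the floor on both arrays. Dppa5a itself was at -0.22, within the spread at its brightness once the shift there was taken off. A difference in direction from its measured relatives therefore cannot be read.

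The list for the 2-cell stage, which holds genes downstream of Dppa2 and Dppa4, could hardly be read. The annotation named 7 of its 22 symbols, and 1 gene was measured. This was Usp17la, a deubiquitinase gene, with 281 in the control array and 315 in the Mll2 shRNA array, a ratio of 0.16. Duxf3, Zfp352, Tcstv1, Tcstv3, Tdpoz1 and Sp110 were below the floor on both arrays, and no difference was detectable for them. The Zscan4 genes of this list were not among the 7, because no probe set gave one of their symbols alone, so they have no value here.

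Regulators of Dux and of the 2-cell-like state had 15 measured genes of 18, 11 of them below 0 and 4 above, with a median of -0.18 (-0.06 under spike-in scaling) and none at 2-fold. The lowest ratios were those of Ehmt2, the histone H3 methyltransferase G9a, at -0.75, its partner Ehmt1 at -0.42, and Pcgf6, a subunit of a Polycomb complex, at -0.36. The highest was that of Smchd1, a chromatin protein of gene silencing, at 0.57, but its second probe set gave -0.17. Ehmt2 had a signal of 1219 in the control array and 726 in the Mll2 shRNA array, and the spread at its level was 0.28.

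Genes of maintenance DNA methylation, the process that Dppa3 restrains through UHRF1, were split. All 10 were measured, 5 below 0 and 5 above, with a median of -0.01. The median was above 0 under all 4 other scalings, with 0.11 under spike-in scaling, but -0.18 when probe sets were averaged. None was at 2-fold. Uhrf1 itself was at -0.19 and Dnmt1, the maintenance methyltransferase, at 0.19. Other probe sets of Dnmt1 gave -0.05 and 0.39. Zfp57, a zinc-finger protein that guards imprints, was at -0.44 with a spread of 0.48, the sliding clamp gene Pcna at -0.38 and the DNA ligase gene Lig1 at -0.21. Uhrf2, a relative of Uhrf1, was at 0.39 in the probe set used and at -0.78 in its second, so that its direction was unclear.

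Dppa3 is also a marker of germ cells. Of 20 other germ-cell genes, 17 were measured, 14 above 0 and 3 below, with a median of 0.38. Those below 0, as Dppa3 was, were Mael, a gene of the piRNA pathway, at -0.58, and the interferon-induced transmembrane genes Ifitm1 at -0.25 and Ifitm3 at -0.16. At least 2-fold higher were Sohlh2, a transcription factor gene of the germline (130 in the control array and 323 in the Mll2 shRNA array), Tex19.1, which restrains transposons (1862 and 4154), and Slc25a31, a testis ADP/ATP carrier gene (119 and 239). Their log2 ratios were 1.31, 1.16 and 1.01. Of these calls, that of Tex19.1 held under every alternative run at this threshold. With the floor at the 70th percentile, the Sohlh2 control value was raised to it, which left a bound of 0.38. Sohlh2 was at 0.99 with the pseudocount. Slc25a31 was at 0.95 with quantile normalization or loess and at 0.73 with the pseudocount. Sycp3, a gene of the meiotic chromosome axis, was at 0.70. No measured gene of this list was at least 2-fold lower. Over all measured genes, 0.983% were at least 2-fold lower and 1.47% at least 2-fold higher. The list was chosen with earlier results of these data known, so its counts and median are a description and no measure of chance.

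Naive-state genes, with which Dppa3 is often grouped, had 6 measured members below 0 and 6 above, of 16 in the list, with a median of -0.02 that was 0.10 under spike-in scaling. None was at 2-fold. Prdm14, which acts in naive and germ cells, was at 0.85, Klf4 at 0.59, with 0.65 in its second probe set, and the orphan receptor gene Esrrb at 0.53, with -0.22 in its second. Tcl1, a coactivator of AKT, was at -0.44. Dppa3 was therefore lower than every measured member of this list, since the lowest of them was Tcl1. Because Dppa3 was chosen with its low value known, nothing further can be read from this order.

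The labelled cell type was checked with markers of embryonic stem cells. All 10 were measured on both arrays, 7 below 0 and 3 above, with a median of -0.39 (-0.27 under spike-in scaling) and none at 2-fold. The lowest was Lin28a, which blocks let-7 maturation, at -0.90, followed by the growth factor gene Fgf4 at -0.65 and the zinc-finger factor gene Sall4 at -0.58. Averaged over their probe sets, Fgf4 was at -0.31 and Sall4 at -0.21. The small differences of Dppa2, Dppa4 and Dppa5a thus lay inside the range of these markers, which ran from -0.90 to 0.47.

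Markers of other cell types were examined beside the low Dppa3 value. Of 10 fibroblast markers 5 were measured, none at 2-fold, with a median log2 ratio of -0.16 (0.27 if the floor was at the 70th percentile) and a summed signal of 827 in the control array and 836 in the Mll2 shRNA array. Thy1, Postn, Lum, Dcn and Prrx1 lay below the floor on both arrays. Of 10 primitive endoderm markers 7 were measured, 1 below 0 and 6 above, with a median of 0.24 and summed signals of 2794 and 3440. The marker below 0 was Dab2, at -0.59, with a bound of -0.57 in its second probe set. Foxa2 (128 in the control array and 601 in the Mll2 shRNA array) was the only primitive endoderm marker at 2-fold. Most of the rise in the summed signal was that of Foxa2. Gata4, Pdgfra and Afp lay below the floor.

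Of 10 trophoblast markers 9 were measured, 5 below 0 and 4 above, with a median of -0.33 (0.18 without suffixed probe sets). Their summed signals were 30075 in the control array and 21662 in the Mll2 shRNA array. Most of both sums came from the keratin genes Krt8 (13635 and 9200) and Krt18 (14840 and 11117). Hand1, above the floor on the Mll2 shRNA array only, had a bound of 0.56. Ascl2, lower by at least 2.05-fold, was the only trophoblast marker at 2-fold (log2 ratio -0.98 under spike-in scaling), with a bound of -0.12 in its second probe set. Krt8 was at -0.57. Of 10 neural markers 8 were measured, 2 below 0 and 5 above, with a median of 0.14 and summed signals of 1775 and 2162. Hes5 entered this median with a ratio of 0 because the probe set used lay below the floor on both arrays. Its other probe set, above the floor on the Mll2 shRNA array only, gave a bound of 0.92. Sox1 (114 and 286, a log2 ratio of 1.33) was the only neural marker at 2-fold. It had a bound of 0.20 if the floor was at the 70th percentile and was at 0.97 with the pseudocount. The part of these cell types in the Dppa values was not tested.

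**Figure D5:**
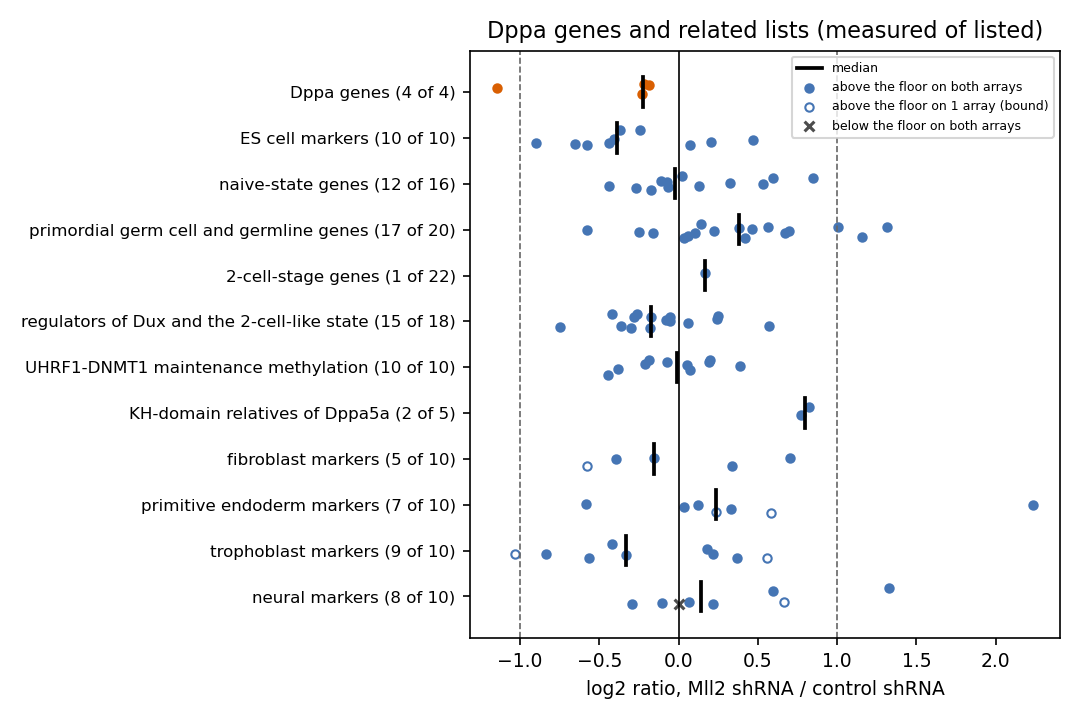
Points give the log2 ratio (x axis) of each measured gene of the Dppa set and of 11 lists (rows). Row labels give the number measured of those listed. Open points are bounds with only 1 array above the floor. The cross is Hes5, for which the probe set used lay below the floor on both arrays. Bars are medians and dashed lines mark 2-fold. Dppa3, chosen with its low value known, lies at -1.14, left of every measured gene in the naive-state and germline lists. The medians of these lists are -0.02 and 0.38.

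Finally, the genes most like each Dppa gene in these arrays were named, as the 2 with the closest log2 ratio among the 500 nearest in mean level. With only 2 arrays this likeness rests on a single difference, and many genes share a small one. For Dppa3 they were Zdhhc15, a palmitoyltransferase gene, and Sned1, at -1.16 and -1.15. For Dppa2 they were the mitochondrial fission gene Dnm1l and the folate enzyme gene Mthfd1, both at -0.23. Other probe sets gave -0.29 for Dnm1l, and -0.22 and -0.69 for Mthfd1. For Dppa4 they were the ATP synthase subunit gene Atp5g2 and Hmgcs1, an enzyme gene of sterol synthesis, both at -0.18. A second probe set of Atp5g2 gave a bound of 0.10, and other probe sets of Hmgcs1 ran from -0.28 to -0.0004. For Dppa5a they were the purine synthesis gene Paics and the ribosomal protein gene Rps9, both at -0.22. Other probe sets gave -0.20 and 0.14 for Paics, and -0.40 and -0.51 for Rps9.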

How the data were processed

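Messenger RNA was measured in 2 samples, 1 per group. The authors deposited log2 values for 45101 probe sets. They used MAS5, per the submitters' processing notes; neither its version nor any later step is stated in the sources used here. The deposited log2 values, taken back to signals, had a 2% trimmed mean of 500.0 on each array. MAS5 subtracts mismatch probes, which makes dim probe sets noisy.

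Leaving out 64 control probe sets left 45037, of which the annotation gave 34945 a single symbol and 932 several; the rest are unnamed here. Symbols were updated to RefSeq (GRCm38.p6), used for names and gene order. No sequences are shown. Values below the floor, the 50th percentile, were raised to it, and a gene was represented by its brightest probe set. Genes were counted at 2-fold. The text names all members and, by rule, up to 4 genes of each list with the largest ratio, the neighbours, and 2 like genes per member. For the fibroblast, primitive endoderm, trophoblast and neural lists, only some or none of the genes under this rule are named. Genes named outside this rule (Kmt2d, Kmt2b, Uhrf1, Dnmt1 and unmeasured list genes, Mael, Ifitm1, Ifitm3, Krt18 and Hes5) were chosen after their values were seen. Members, lists and settings were chosen with earlier results of these data known. The steps were tested on simulated data, with planted differences larger than that of Dppa3 and in brighter genes. That test therefore does not cover a case like Dppa3. Alternatives were 4 scalings, other floors, a pseudocount, other uses of probe sets and other thresholds. Python 3.11.15, numpy 2.4.6, pandas 2.3.3, scipy 1.17.1, matplotlib 3.10.9, R 4.3.3 and limma 3.58.1 (loess) were used.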

Additional observations from a re-analysis of the deposited data

How the results depend on the processing

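All 4 Dppa ratios stayed below 0 under the 10 alternatives that keep the 2-fold threshold, but several of these could not move them. The 30th-percentile floor and the use of no floor left all 4 ratios as deposited. Other uses of probe sets changed only Dppa2, and the 70th-percentile floor changed only Dppa3. Dppa3 ran from -1.21 to -0.79 (a bound), Dppa2 from -0.24 to -0.11, Dppa4 from -0.18 to -0.066 and Dppa5a from -0.22 to -0.068. Quantile normalization moved Dppa5a most, to -0.068. The count of Dppa genes at the threshold was 1 as deposited, and 0 for a 70th-percentile floor, for the pseudocount and at 3-fold. Genes at least 2-fold lower and higher in the whole table, 116 and 173 as deposited, numbered 480 and 493 for a 30th-percentile floor, 38 and 50 at the 70th, 1744 and 1753 with no floor or filter, 67 and 84 with the pseudocount, 553 and 871 at 1.5-fold, and 18 and 27 at 3-fold. The trophoblast median, -0.33, was 0.18 without suffixed probe sets; the fibroblast median, -0.16, was 0.27 for the 70th-percentile floor. No paired analysis was possible because each group has 1 array. Dim probe sets limit what can be read of the 2-cell-stage genes.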
